A study of Homo sapiens with 9 samples.

Results

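The genes of homologous recombination and of the Fanconi anemia pathway were followed in MM1S, a human multiple myeloma cell line, before and after depletion of PHF19. The PHF19 protein joins Polycomb repressive complex 2, which methylates histone H3 at lysine 27. The 36 genes were chosen by name from the 58387 rows of the deposited count table, and all 36 passed the filter on low counts. All groups were MM1S cells infected with lentivirus. The control carried an empty vector (shEV, n = 3), the knockdown an shRNA against PHF19 (PHF19_KD, n = 3), and the rescue the knockdown plus PHF19 that the shRNA cannot target (KD_Rescued, n = 2). The labels do not say whether the infected lines were clones or pools, nor whether replicates were separate cultures, so the spread behind each p-value is that between libraries and may be technical only. A further library has a knockdown title but the shRNA label of the rescue. It entered no group, and its values are given separately. The names of the PHF19_KD libraries share the stem MMCL2, and those of KD_Rescued the stem MMRESWT. The name of the further library begins with MMCL11. What these stems stand for is not stated, and the PHF19_KD libraries may be repeats of a single infected line.

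Homologous recombination repairs broken or stalled DNA by copying an intact sister chromatid, so it works mainly while DNA is being replicated and before mitosis. Broken ends are first trimmed, the exposed strand then pairs with the intact copy with the help of BRCA1, BRCA2 and their partners, and the joined molecules are finally separated. The Fanconi anemia proteins detect crosslinks that block the replication fork, attach ubiquitin to FANCD2 and FANCI, and pass the lesion on to recombination. The kinases ATM and ATR signal the damage, and ATR acts through CHEK1. Myeloma cells are often treated with DNA crosslinking agents, which these pathways repair.

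PHF19 itself was lowered by the shRNA and raised by the rescue, with 23.1% of the shEV mean left in PHF19_KD and 188% in KD_Rescued. Transcripts of the cell's own gene and of the introduced copy were counted together. Column totals ran from 10164100 to 23751400 counts, with all 3 PHF19_KD libraries below every shEV and KD_Rescued library. The plasma cell markers SDC1, TNFRSF17, PRDM1, XBP1, IRF4, CD38 and SLAMF7 and the gene MAF all had group means of at least 98.9 CPM. Of these 8, 4 were called higher and 2 lower in PHF19_KD than in shEV. Over all genes tested, 34.9% were called higher and 34.2% lower. CD38 went from 147, 146 and 151 CPM in shEV to 337, 327 and 332 CPM in PHF19_KD. TNFRSF17 went from 234, 244 and 265 CPM to 121, 115 and 118 CPM. The highest level of any marker of T cells, monocytes, fibroblasts or epithelial cells in any library was 2.79 CPM, reached by COL1A1 in PHF19_KD. The lymphoid gene CD3E was called lower in PHF19_KD and COL1A1 called higher. CD3D, LUM and KRT19 were at 0 in all libraries. Both KD_Rescued libraries were run in lane 2 and all others in lane 6, per the library names, and the effects of lane and of rescue cannot be told apart.

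Promoter sequences show 2 of the largest falls of the set beside 2 of its smallest changes. A RefSeq table (GRCh38.p14) held windows of 300 bases around the transcription start, 250 upstream and 50 downstream, for 32 of the 36 genes. Of the genes with a single window, BLM and XRCC2 had the largest falls in the knockdown and MUS81 and FANCF the smallest changes. Capitals mark letters searched on either strand. The E2F-type motif was any of TTGGCGC and the variant TTGGCGG, the form TTCGCGC and its variant TTCGCGG, or the form TTCCCGC and its variant TTCCCGG. The CHR motif of late cell cycle genes was TTTGAA or the form TTCGAA, and the CCAAT box was CCAAT.
BLM (chr15:90717096-90717395, plus strand): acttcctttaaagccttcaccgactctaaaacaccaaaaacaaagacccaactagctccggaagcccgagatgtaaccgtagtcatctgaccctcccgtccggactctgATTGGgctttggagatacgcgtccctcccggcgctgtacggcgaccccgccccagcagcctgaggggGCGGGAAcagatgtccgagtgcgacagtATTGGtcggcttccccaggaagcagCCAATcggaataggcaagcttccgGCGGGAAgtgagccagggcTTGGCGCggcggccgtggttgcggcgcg
XRCC2 (chr7:152676092-152676391, minus strand): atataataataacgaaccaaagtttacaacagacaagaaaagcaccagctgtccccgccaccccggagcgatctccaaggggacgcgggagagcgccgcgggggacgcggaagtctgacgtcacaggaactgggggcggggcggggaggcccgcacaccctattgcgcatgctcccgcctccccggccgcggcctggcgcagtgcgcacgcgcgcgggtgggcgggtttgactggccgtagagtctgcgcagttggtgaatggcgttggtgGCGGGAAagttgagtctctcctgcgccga
MUS81 (chr11:65860183-65860482, plus strand): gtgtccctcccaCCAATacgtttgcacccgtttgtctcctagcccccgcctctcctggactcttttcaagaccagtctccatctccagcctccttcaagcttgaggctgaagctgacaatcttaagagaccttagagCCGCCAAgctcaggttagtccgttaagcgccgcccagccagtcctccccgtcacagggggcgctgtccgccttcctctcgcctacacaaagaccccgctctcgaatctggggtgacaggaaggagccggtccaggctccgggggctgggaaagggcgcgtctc
FANCF (chr11:22625774-22626073, minus strand): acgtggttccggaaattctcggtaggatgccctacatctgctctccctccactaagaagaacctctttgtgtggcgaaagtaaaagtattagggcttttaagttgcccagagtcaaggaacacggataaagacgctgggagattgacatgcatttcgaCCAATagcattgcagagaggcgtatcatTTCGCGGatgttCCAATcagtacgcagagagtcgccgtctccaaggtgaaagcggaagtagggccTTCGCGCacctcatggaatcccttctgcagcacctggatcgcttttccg
The BLM window held 3 E2F-type matches and 3 CCAAT matches, and that of XRCC2 held 1 E2F-type match. The windows of the little-changed MUS81 and FANCF held 1 and 2 E2F-type matches as well. Over the set, 26 of 32 genes (81.2%) had an E2F-type match in at least 1 window. The share was 37.8% of the 10042 tested genes in the table and 23.8% of all 27305 genes in it. Among all single windows of this length 20.5% had one, as had 29.4% of the 14703 windows of tested genes and 65.1% of the 43 windows of the set. The CHR motif was found for 15.6% of the genes of the set and 15.7% of the tested genes, and CCAAT for 16 of the 32 genes and 43.4% of the tested genes. Within the set, the median log2 fold change in the knockdown was -1.90 for the 26 genes with an E2F-type match and -2.02 for the 6 without, BRCA2 among the latter. It was -2.22 for the 5 genes with a CHR match and -1.87 for the 27 without, and -2.08 for the 16 with CCAAT and -1.77 for the 16 without. These are matches of letters in a fixed window, given as a description with no test.

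The first comparison asked how the set differs when PHF19 is depleted. Of the 36 genes, 33 fell, 1 rose and 2 did not pass the test (edgeR quasi-likelihood, Benjamini-Hochberg adjusted p below 0.05, over 16600 genes). Over all genes tested, 34.2% were called lower and 34.9% higher. At least 2-fold falls were called for 27 of the 36 genes, against 10.1% of all genes. The median log2 fold change was -1.93 in the set and 0.03 over all genes. The 36 genes together took from 0.176% to 0.194% of the counts of each shEV library and from 0.0630% to 0.0662% in PHF19_KD. In these bulk samples, fewer cells in the phases that use a gene and less RNA per cell cannot be told apart. The levels of 14 proliferation markers, MKI67 and CDK1 among them, summed to between 4228 and 4450 CPM in shEV and to between 415 and 433 CPM in PHF19_KD. All 14 fell (median -3.24 on the log2 scale), and their part in the falls of the repair genes was not tested. Mitochondrially encoded genes took 9.02% to 10.0% of the counts in PHF19_KD and 2.84% to 3.32% in shEV, and without them 33 members fell as well.

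**Figure D1:**
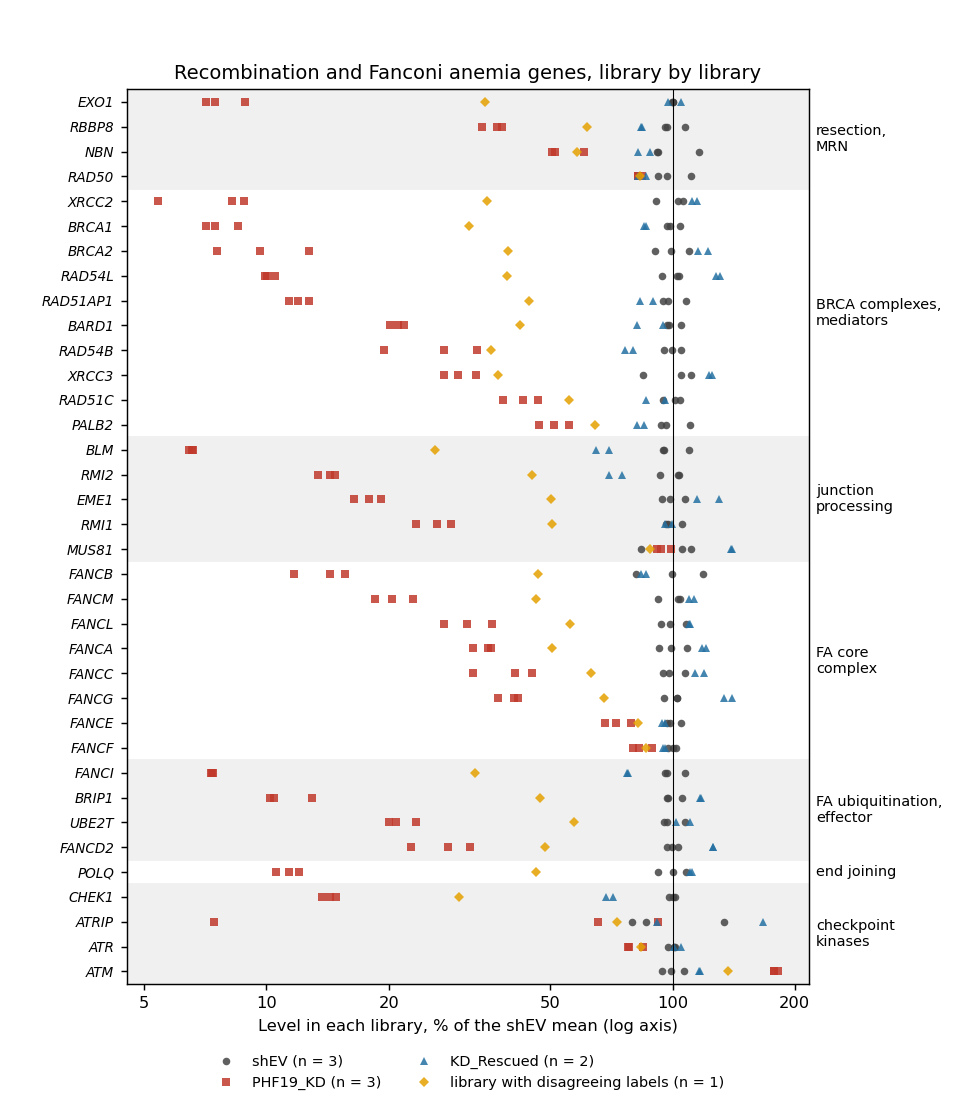
Level of each of the 36 genes in each of the 9 libraries, as a percentage of the shEV mean on a log axis, grouped by role. Dots are shEV, squares PHF19_KD, triangles KD_Rescued and diamonds the library with disagreeing labels. Most squares lie far left of the dots, down to about 6.54% for the BLM mean, ATM lies to the right, and most diamonds fall between both groups.

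End resection opens the pathway. EXO1, an exonuclease that extends resection, had 69.9, 69.3 and 69.8 CPM in shEV and 5.21, 4.96 and 6.16 CPM in PHF19_KD. All knockdown libraries were thus far below the controls, at a log2 fold change of -3.68 ± 0.08 (SE, adjusted p = 4.43e-12). RBBP8, which encodes CtIP, the factor that starts resection, fell by 1.46 on the log2 scale. NBN and RAD50, subunits of the MRE11 complex, which senses and processes ends, fell less. The nuclease subunit of that complex is not in the set, so this does not describe the complex as a whole. NBN changed by -0.88 ± 0.11 (SE), and RAD50 by -0.27 ± 0.07, with 103, 98.1 and 118 CPM in shEV and 89.7, 87.9 and 87.5 CPM in PHF19_KD. With upper-quartile scaling the call of RAD50 was lost (log2 fold change -0.11, adjusted p = 0.161).

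All 10 genes of the BRCA complexes and recombination mediators fell, 9 of them at least 2-fold. BRCA1, a ubiquitin ligase and organiser of the response, had 114, 111 and 120 CPM in shEV and 9.77, 8.19 and 8.59 CPM in PHF19_KD. It kept 7.69% of its control level, a log2 fold change of -3.70 ± 0.07 (SE, adjusted p = 2.22e-12). BARD1, its obligate partner, kept 21.0% (58.0, 57.3 and 62.1 CPM against 11.9, 12.5 and 12.9 CPM). BRCA2, a mediator of strand pairing, kept 9.98%, while PALB2, which links BRCA1 to BRCA2, kept 51.1%. The knockdown counts of BRCA2 were 18 to 27 per library, which limits their precision.

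Among XRCC2, XRCC3 and RAD51C, which assist strand pairing, XRCC2 went from 41.4, 36.5 and 42.5 CPM to 3.54, 3.31 and 2.17 CPM. Its log2 fold change was -3.74 ± 0.13 (SE), against -1.74 ± 0.13 for XRCC3 and -1.23 ± 0.09 for RAD51C. RAD51AP1, which promotes strand pairing, changed by -3.05 ± 0.09. The strand exchange motor RAD54L went from 32.2, 32.6 and 29.6 CPM to 3.16, 3.31 and 3.12 CPM. Its paralog RAD54B changed by -1.92 ± 0.15, so both paralogs fell, RAD54L to 10.2% and RAD54B to 26.6% of the control.

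Changes of the genes that separate joined DNA molecules ranged from -3.93 for BLM to -0.08 for MUS81 on the log2 scale. Of these 5 genes, 4 fell at least 2-fold. BLM, the helicase that dissolves crossed strands together with RMI1 and RMI2, had the largest fall of the set. It stood at 49.87, 49.96 and 57.7 CPM in shEV and at 3.44, 3.39 and 3.47 CPM in PHF19_KD, a log2 fold change of -3.93 ± 0.10 (SE, adjusted p = 2.15e-11). RMI2 and RMI1 changed by -2.82 ± 0.09 and -1.94 ± 0.08. The endonuclease subunits EME1 and MUS81 went separate ways. EME1 went from 15.1, 13.2 and 13.9 CPM to 2.70, 2.32 and 2.51 CPM, whereas MUS81, the catalytic subunit, had 37.4, 39.2 and 29.7 CPM in shEV and 35.1, 32.5 and 33.1 CPM in PHF19_KD. The MUS81 libraries of both groups overlapped, and the change of -0.08 ± 0.09 was not called (adjusted p = 0.448). Without shEV replicate 3, which was lowest, MUS81 was called lower (-0.19, adjusted p = 0.00647), and without a filter too (-0.18, adjusted p = 0.0424), while with upper-quartile scaling its change was 0.07.

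All 8 Fanconi core complex genes fell, over a wide range, from -2.84 ± 0.21 (log2, SE) for FANCB to -0.25 ± 0.06 for FANCF. FANCB had only 11 to 14 counts in each PHF19_KD library. FANCM, the motor protein that brings the complex to DNA, changed by -2.28 ± 0.14, and FANCL, the ubiquitin ligase subunit, by -1.66 ± 0.10. FANCA, FANCC and FANCG lay between -1.54 and -1.33. FANCE changed by -0.45 ± 0.09. FANCF went from 38.2, 38.6 and 37.1 CPM to 31.4, 33.8 and 30.4 CPM, and its call was lost with upper-quartile scaling (-0.10, adjusted p = 0.182). The 4 genes of the later steps had a median of -2.69, against -1.44 for the core complex. UBE2T, the ubiquitin-conjugating enzyme of the pathway, changed by -2.22 ± 0.08 and BRIP1, a helicase that binds BRCA1, by -3.16 ± 0.10.

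FANCI and FANCD2, the paired proteins that receive the ubiquitin, fell unequally. FANCI had 251, 249 and 279 CPM in shEV and 19.16, 19.03 and 18.99 CPM in PHF19_KD (log2 fold change -3.77 ± 0.06, SE, adjusted p = 6.11e-13). FANCD2 had 49.2, 47.7 and 50.9 CPM in shEV and 15.6, 11.2 and 13.8 CPM in PHF19_KD (-1.87 ± 0.09, adjusted p = 3.50e-09). The knockdown left 7.34% of the control level of FANCI and 27.5% of that of FANCD2. The FANCD2 count was not a whole number in any library, as happens where reads are divided among related sequences. POLQ, the polymerase of a backup end joining route, went from 51.05, 46.98 and 55.03 CPM to 6.14, 5.38 and 5.81 CPM.

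The checkpoint genes held the only rise of the set. ATM, the kinase activated by broken ends, had 62.5, 59.4 and 67.5 CPM in shEV and 112, 115 and 112 CPM in PHF19_KD. All knockdown libraries were above all controls, at 179% of the control mean and a log2 fold change of 0.84 ± 0.05 (SE, adjusted p = 3.29e-08). The ATM count was not whole in any library. NPAT and C11orf65, whose exons overlap ATM on the opposite strand in GENCODE 29, changed by -0.46 ± 0.07 (adjusted p = 8.37e-05) and 0.05 ± 0.30 (adjusted p = 0.884). Both were looked up after the ATM value was seen. ATR, the kinase activated by exposed single strands, changed by -0.32 ± 0.06, while CHEK1, the kinase it activates, went from 106, 103 and 105 CPM to 15.54, 14.31 and 15.003 CPM. ATRIP, the partner of ATR, had 6.19, 10.5 and 6.72 CPM in shEV and 7.16, 0.579 and 5.12 CPM in PHF19_KD. These groups overlapped, and the change of -0.89 ± 0.68 was not called (adjusted p = 0.286). Its exons overlap those of TREX1 on the same strand, and its count was fractional in every library.

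**Figure D2:**
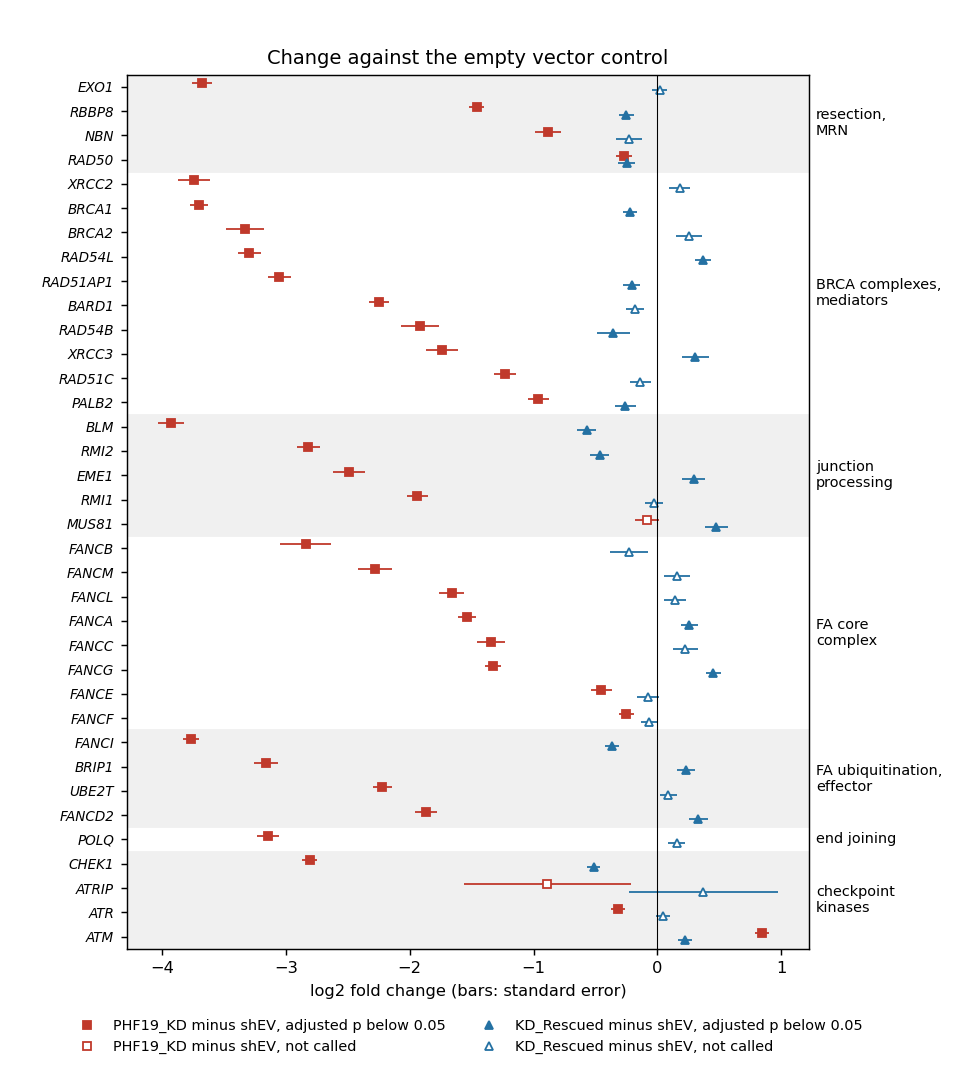
log2 fold change with its standard error against shEV for PHF19_KD (squares) and KD_Rescued (triangles), filled where the adjusted p was below 0.05. The squares reach from -3.93 for BLM to 0.84 for ATM, whereas all triangles lie between -0.57 and 0.48.

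Genes whose proteins act as partners were next compared within each library, as the log2 ratio of both levels, which does not depend on the scaling between libraries. Only the shift of a ratio between groups was read, since the levels were not divided by transcript length. The 15 pairs were chosen after the values had been seen, so they are described with no test. The MUS81 to EME1 ratio was 2.42 higher in PHF19_KD than in shEV on the log2 scale, with SDs of 0.06 (n = 3) and 0.23 (n = 3). The PALB2 to BRCA2 ratio was 2.39 higher and the BARD1 to BRCA1 ratio 1.45 higher. The CHEK1 to ATR ratio fell by 2.49 and the FANCI to FANCD2 ratio by 1.89. In each of these 5 pairs, no shEV library lay within the PHF19_KD range. Among the 15 pairs, only the ATR to ATRIP and XRCC3 to RAD51C ratios overlapped between both groups. As the pairs were picked on their values and gene pairs at large were not examined, no conclusion is drawn from this. In KD_Rescued (n = 2) the mean BARD1 to BRCA1 ratio was within 0.04 of shEV and the mean MUS81 to EME1 ratio within 0.20. The BARD1 to BRCA1 ratios of the KD_Rescued libraries, -1.03 and -0.81, lay on either side of the shEV range (-0.970 to -0.953). The FANCI to FANCD2 ratio was 0.69 lower than in shEV and the CHEK1 to ATR ratio 0.56 lower. The PALB2 to BRCA2 ratio, higher in the knockdown, was 0.51 lower than in shEV.

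**Figure D3:**
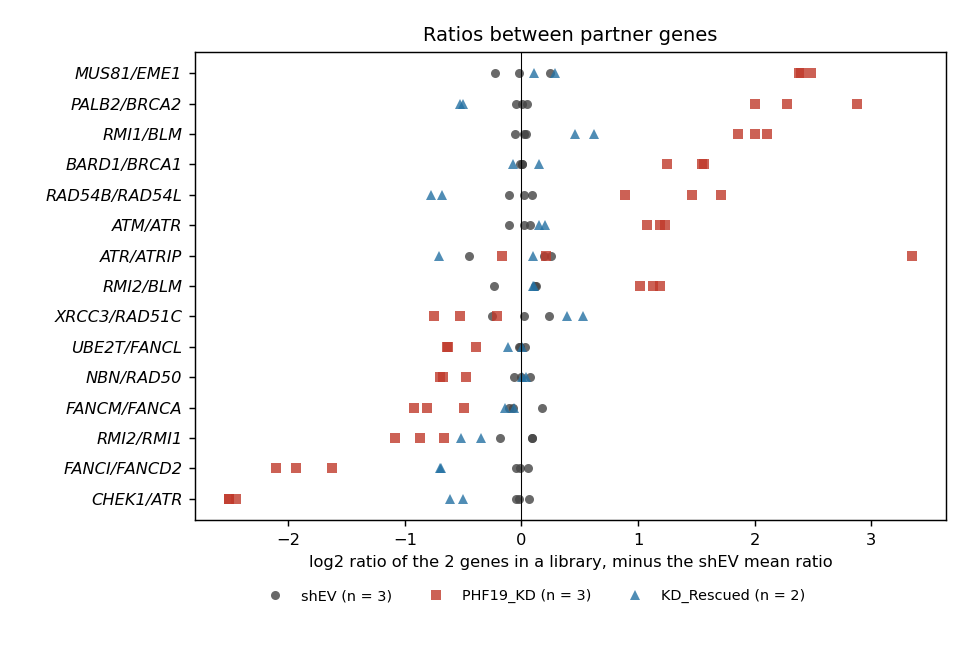
log2 ratio of 2 partner genes in each library, minus the mean ratio in shEV, for 15 pairs. Squares (PHF19_KD) reach a mean of 2.42 for MUS81/EME1 and -2.49 for CHEK1/ATR, and the means of the triangles (KD_Rescued) run from -0.73 for RAD54B/RAD54L to 0.54 for RMI1/BLM.

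Other genes of the same pathways gave a less uniform picture. The counts of each list stand beside 34.2% of all genes tested called lower and 34.9% called higher. Of 62 tested genes on a further list of recombination and Fanconi anemia factors, 43 fell and 8 rose, with a median log2 fold change of -0.78. TOPBP1, an activator of ATR, changed by -2.05 ± 0.06 (SE) and CLSPN, the adaptor between ATR and CHEK1, by -4.22 ± 0.13. Rises were called for the nuclease subunit ERCC1 (1.28 ± 0.08), for FAM175A, a member of a BRCA1 complex (0.94 ± 0.08), and for EME2, an alternative partner of MUS81 (1.03 ± 0.11). Of 14 genes of non-homologous end joining, the competing route that joins ends without a template, 8 fell and 4 rose. The falls of XRCC5 and XRCC6, which encode Ku, and of the kinase gene PRKDC lay between -0.93 and -0.70, and the ligase LIG4 rose by 0.72. Of 7 mismatch repair genes 6 fell, among them MSH6 (-1.89 ± 0.07). Of 35 excision repair genes 18 fell and 9 rose. FEN1 and LIG1, which also process replication fragments, changed by -3.05 ± 0.06 and -2.90 ± 0.06. The glycosylase gene NEIL1 changed by 2.14 ± 0.13.

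**Figure D4:**
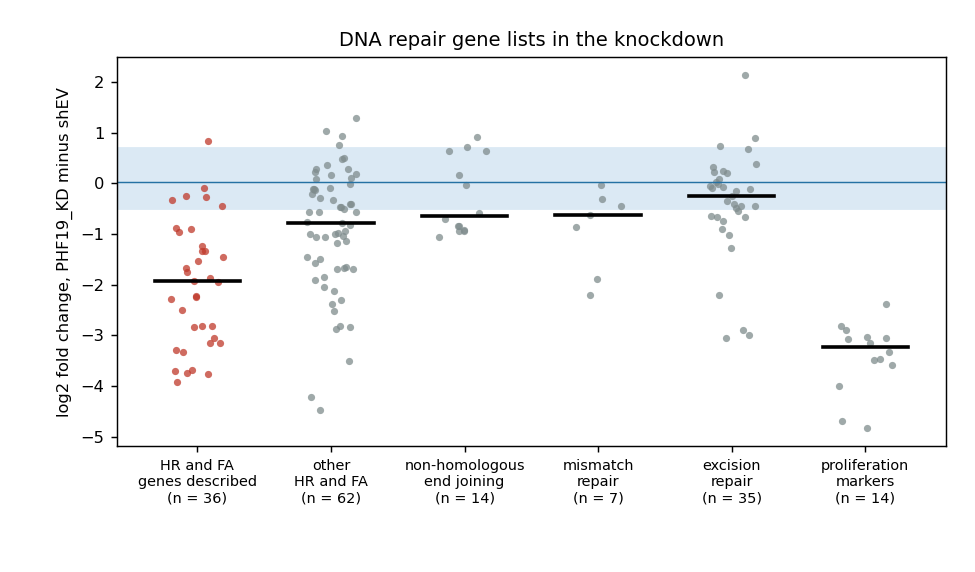
log2 fold change of every tested gene of 6 lists between PHF19_KD and shEV, with the median of each list as a bar. The line and band give the median (0.03) and the quartiles (-0.50 and 0.69) of all genes tested. The medians run from -3.24 for proliferation markers and -1.93 for the 36 genes to -0.25 for excision repair.

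The second comparison set rescued cells against knockdown cells. Of the 36 genes 33 rose, 1 fell and 2 did not pass, where 33.9% of all genes were called higher and 29.5% lower. At least 2-fold rises were called for 27 genes, against 10.5% of all genes, and the median log2 fold change was 2.06, against 0.03 over all genes. Both contrasts share the PHF19_KD libraries, so a fall in the first and a rise in the second are not independent. XRCC2 reached 44.8 and 46.0 CPM (3.92 ± 0.13, log2 and SE, adjusted p = 1.89e-10), EXO1 68.0 and 73.0 CPM and BRCA1 97.9 and 99.1 CPM. ATM fell by 0.62 on the log2 scale, to 73.7 and 73.3 CPM (adjusted p = 1.58e-06). MUS81, not called in the knockdown, was at 49.5 and 49.4 CPM, above every shEV and PHF19_KD library (0.56 ± 0.10, adjusted p = 0.000418). RAD50 was at 91.5 and 87.5 CPM, overlapping the knockdown (0.02 ± 0.07, adjusted p = 0.831), and ATRIP was not called (adjusted p = 0.167). The proliferation markers summed to between 3802 and 3828 CPM, and their part in these rises was not tested. The call of FANCF (0.18 ± 0.07, adjusted p = 0.0291) was lost in 11 of the 19 alternatives, among them those without PHF19_KD replicate 1 or 3 or KD_Rescued replicate 1 or 2 (adjusted p from 0.0740 to 0.128).

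The third comparison asked how close rescued cells were to the control. KD_Rescued levels ran from 67.2% of the shEV mean for BLM to 140% for MUS81, with a median of 102%. None of the 36 genes was called with a 2-fold difference or more, where 1.87% of all genes were lower and 5.46% higher by that much. Of them, 10 were called lower, 9 higher and 17 were not called, against 19.1% and 20.7% of all genes called lower and higher. The members thus split between both directions, as all genes did. Among the lower ones, BLM had 34.0 and 36.6 CPM (-0.57 ± 0.08, SE, adjusted p = 0.000124), CHEK1 72.0 and 74.6 CPM (-0.51 ± 0.05, adjusted p = 1.61e-05), RMI2 26.2 and 28.3 CPM, and FANCI 201 and 202 CPM. All 4 lay below every shEV library. Among the higher ones, FANCG had 92.91 and 96.99 CPM (0.45 ± 0.06, adjusted p = 0.000111) against 71.1, 71.1 and 66.0 CPM in shEV, and RAD54L had 40.2 and 41.1 CPM (0.37 ± 0.07, adjusted p = 0.000981). MUS81 was higher by 0.48 ± 0.09. These 7 genes kept their calls under all 17 alternatives that left out the library with disagreeing labels. Of all 19 calls, 0 held in both of the other alternatives: counting that library as PHF19_KD left 1 lower and 1 higher call, and counting it as KD_Rescued left 2 lower and 0 higher. The calls of the other genes were less stable. RAD50, BRCA1, PALB2, RBBP8, RAD51AP1 and RAD54B (lower) and FANCD2, FANCA, ATM, BRIP1, EME1 and XRCC3 (higher) each lost theirs under at least 1. Without KD_Rescued replicate 1 there were 5 lower and 3 higher calls, without KD_Rescued replicate 2 there were 4 and 4, and without shEV replicate 3 there were 14 higher calls. PHF19 in these cells was above the control, and lane cannot be separated from the rescue.

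The library with disagreeing labels held 63.3 CPM of PHF19, 54.3% of the shEV mean. For 30 of the 36 genes its level lay between the PHF19_KD and shEV libraries, for 5 within the PHF19_KD range (FANCF, ATR, ATRIP, NBN and RAD50) and for MUS81 within the shEV range. The same share was not computed over all genes tested, so this placing cannot be read as particular to the set. The median of this library over the 36 genes was 49.4% of the shEV mean, from 26.0% for BLM to 137% for ATM. The medians were 26.3% for PHF19_KD and 102% for KD_Rescued. BRCA1 stood at 36.2 CPM, CHEK1 at 31.1 CPM, FANCI at 84.7 CPM and ATM at 86.7 CPM. Its proliferation markers summed to 1413 CPM, also between both groups.

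Counts of some of the genes are uncertain. Counting a value within 0.01 of a whole number as whole, 15 of the 36 had whole counts in all 9 libraries and 9 had fractional counts in all 9, namely RAD54L, FANCA, FANCD2, FANCF, FANCL, XRCC3, ATM, ATRIP and EME1. In GENCODE 29, exons of 14 of the 36 genes overlap a protein-coding gene on the same or the opposite strand. The strand setting of the counting is not given in the sources used here, so how reads in the shared bases were assigned is not known. These bases can be few, as the 80 that CHEK1 shares with STT3A. They can also be many, as the 5756 that XRCC3 shares with KLC1. The overlapping genes, looked up after the values had been seen, moved in both directions. Beside FANCA, ZNF276 changed by 1.33 ± 0.10 (log2, SE), and beside RAD54L, LRRC41 by 0.36 ± 0.07. Beside EME1, LRRC59 changed by -1.48 ± 0.04, and beside FANCF, GAS2 by -0.999 ± 0.070. Beside MUS81, CFL1 changed by -0.71 ± 0.05, and beside XRCC3, KLC1 by 0.31 ± 0.06.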

How the data were processed

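RNA was measured in 9 libraries of MM1S cells. The authors deposited estimated counts per gene, not scaled between libraries. The submitters' processing notes name CASAVA, RSEM and hg19 without roles or versions, while the table's own name refers to salmon. The annotation, any filter and the strand setting: not given in the sources used here. Counts were rounded and tested with edgeR 4.0.16 (R 4.3.3) by filterByExpr, TMM scaling and the robust quasi-likelihood test, in a single fit of 8 libraries by group, with Benjamini-Hochberg adjustment over 16600 genes. CPM use the sum of each library over the tested genes times its TMM factor. For the library with disagreeing labels that factor came from scaling all 9 libraries together, then matched to the scale of the other 8. SE was taken as the log2 fold change over the root of F, and SD is between libraries. All 36 members could be named. Of other lists, up to 3 called rises and 3 called falls with the lowest adjusted p were, and any marker gene. Some genes that this rule would name are not reported here. Members and lists were chosen with earlier results of these data known. Replicate pairs differed by more than counting noise (chi-square per degree of freedom from 1.37 to 9.15), with shEV replicate 3 farthest from its group. In simulated counts (15980 genes, PHF19_KD against shEV), 8% of 50 genes changed 1.25-fold were recovered, 72% at 1.5-fold, 92% at 2-fold and 98% at 4-fold. The simulation gave all genes the same fixed dispersion and changed far fewer genes than were called in the data. These shares therefore check the procedure and do not measure its power here. Alternatives used limma 3.58.1, DESeq2 1.42.0 and others given in the closing section.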

Additional observations from a re-analysis of the deposited data

Results flagged for a closer look

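ATM was at 86.7 CPM in the library with disagreeing labels, which enters no comparison, above the highest shEV library (67.5 CPM) and below the lowest PHF19_KD library (112 CPM). It was the only 1 of the 36 genes for which that library exceeded every control. No group had the 4 libraries needed to test for an outlying sample.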

How the results depend on the processing

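In all, 19 alternatives were run. Between 31 and 34 of the 36 genes fell in PHF19_KD against shEV, between 28 and 33 rose in KD_Rescued against PHF19_KD, and ATM alone went the other way in each. The disputed library is the one with disagreeing labels. The median log2 fold change of the set in the knockdown (-1.93) became -1.77 with upper-quartile scaling, -2.02 without a filter, -1.83 with a filter at 5 CPM, and -1.68 with the disputed library counted as PHF19_KD. It lay between -2.04 and -1.81 when any 1 library was left out. For the rescue against the knockdown (2.06) it became 1.90 with upper-quartile scaling, 1.98 with the 5 CPM filter, and 1.69 and 1.68 with that library counted as PHF19_KD and as KD_Rescued. It lay between 2.01 and 2.10 with 1 library left out. Upper-quartile scaling also moved the median of all genes to 0.19 and -0.12, and the share of calls that were higher from 50.5% to 60.6% in the knockdown and from 53.4% to 42.1% after rescue.

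Rescue against control was the least stable comparison. With the disputed library counted as PHF19_KD, 1 gene was lower and 1 higher, and counted as KD_Rescued 2 and 0, in place of 10 and 9. Higher calls numbered 4 with DESeq2 and 5 with only the groups compared. With 1 library left out, lower calls ran from 4 to 10 and higher calls from 3 to 14. The median (0.03) was -0.0165 with RLE scaling, -0.0166 with DESeq2, -0.0199 without a filter, -0.0157 with the library counted as PHF19_KD, and -0.18 with it counted as KD_Rescued. With 1 library left out it ran from -0.0268 to 0.0356. The PHF19 change there lost its call with the library counted as PHF19_KD (0.86, adjusted p = 0.105) or as KD_Rescued (0.49, adjusted p = 0.380), and ran from 0.82 to 0.95 with 1 library left out. With it counted as KD_Rescued, RAD54L (-0.0284), BRIP1 (-0.11), FANCA (-0.0732), FANCD2 (-0.0235), XRCC3 (-0.0777) and EME1 (-0.0338) changed sign without a call. The cause was not tested. The lone library of a KD_Rescued group cut to 1 is assumed to vary like the others.

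Replicate numbers carry no stated pairing, and same-numbered libraries of PHF19_KD and shEV had correlations of their deviations between 0.00701 and 0.0256. With the replicate number as a block, 33 genes fell and 1 rose in the knockdown, 32 rose and 1 fell after rescue, and 10 were higher and 7 lower against the control. Depth limits FANCB, BRCA2 and FANCM, with 11 to 27 counts in PHF19_KD libraries, and ATRIP, with 7.03 in replicate 2. It also limits XRCC2, with 25 to 40 counts in those libraries, RAD54B, with 24.4 to 35.9, and EME1, with 28.0 to 29.2.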
